A study of Mus musculus with 6 samples.

Results

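Targets of the transcription factor p53 that act outside its death, cell cycle and repair arms were followed in DN3 thymocytes, the immature T cells of the thymus that carry CD25 and lack CD4, CD8 and CD44. They were chosen by name: Zmat3, Phlda3, Ptpn14, Ei24, Trp53inp1, 9030617O03Rik (now called Dglucy), Abhd4, Kank3, Pvt1 and Cdkn2aip. Of these 10 genes, 9 were matched by symbol among the 34573 genes of the count table, and all 9 passed the filter on low counts that left 13729 genes to test. Pvt1, a long noncoding RNA gene beside Myc, was not analysed here. RNA was sequenced from 3 WT and 3 L1 KO libraries, made from mice of 6 to 8 weeks on a mix of C57BL/6 and 129. Both groups carried the floxed Rpl22l1 gene (Rpl22l1fl/fl), which encodes a paralog of the ribosomal protein Rpl22. The L1 KO mice also carried Vav-Cre, a recombinase driven by a promoter active in blood-forming cells, and the WT mice carried no Cre. Deletion of Rpl22l1 and presence of Cre therefore cannot be told apart. The series text joins Cre and genotype in the opposite way; the sample labels were followed.

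p53 is a transcription factor that stays at a low level in unstressed cells and is stabilised by DNA damage, by faulty ribosome assembly and by other stress. In thymocytes it is best known for causing cell death after DNA damage. Beside its death and cell cycle genes it switches on genes of RNA control, lipid and AKT signalling, growth control and autophagy, to which several of the genes described here belong. The protein rises mostly without a change in its own messenger RNA, so that its targets serve as the usual readout.

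The libraries held 13887672 to 28128186 reads counted to genes. Rpl22l1 had 86.3 to 123 CPM (reads per 1e+06 reads in genes, scaled by TMM, a correction for library composition) in WT and 18.6 to 26.1 CPM in KO (log2 fold change −2.35 ± 0.18, SE; adjusted p = 0.00116, edgeR), so every library matched its label. The DN3 markers Il2ra, which encodes CD25, and Ptcra, which encodes the pre-T cell receptor alpha chain, had means of 1560 and 119 CPM in WT and 1926 and 124 CPM in KO, while Cd4 and Cd8a were at 1.73 and 0.985 CPM in WT. Of the 9 tested DN3 markers and the 4 of CD4 CD8 double-positive cells none was called. With the replicate number as a block in edgeR, 1 DN3 marker was higher, Il2ra (adjusted p = 0.00412), and 3 were lower, Notch3 (0.00829), Rag1 (0.00446) and Lck (0.033). Over all tested genes the fit with the block called 19.5%. The double-positive markers summed to 10.3 to 17.7 CPM in WT and 14.1 to 19.8 CPM in KO. Markers of other cells ranged from 0 reads to levels above that of Ptcra: the 8 dendritic markers summed to 57.4 to 95.6 CPM in WT and 82.7 to 86.3 CPM in KO (mostly Bst2), the 7 myeloid ones to 30.9 to 36.5 and 31.8 to 37.2 CPM, the 6 B lineage ones to 30.5 to 33.0 and 23.7 to 27.1 CPM, and the 8 epithelial and stromal ones to 103 to 124 and 117 to 138 CPM (mostly Epcam and Pdgfrb). The 4 endothelial markers summed to 94.3 to 121 CPM in WT and 92.7 to 102 CPM in KO, nearly all from Pecam1. The 5 NK and innate lymphoid markers summed to 151 to 197 and 202 to 233 CPM, mostly from Gzma at means of 138 and 180.4 CPM, and those of red cells and platelets to 3.001 to 5.85 and 0.805 to 3.70 CPM. Ms4a1, Pax5, Ppbp, Ncr1 and Emcn had 0 reads in all 6 libraries. Among the markers, Cd74 and H2-Eb1 of the dendritic list fell, from 94 reads in WT to 32 in KO and from 42 to 12. Of the other tested dendritic markers, H2-Ab1 and Itgax leaned lower and Bst2 higher, and none was called. In the epithelial and stromal list Epcam fell, from a mean of 54.3 to 32.1 CPM, and Pdgfrb rose, from 58.7 to 93.2 CPM. Krt5, Pdgfra and Col3a1 of that list had at most 1 read per group. With the block Gzma was higher too (adjusted p = 0.00418, edgeR), and H2-Ab1, Itgax, Cd79b, Hba-a2 and Cdh5 were lower (0.0113 to 0.0437). The part of all these markers in the results below was not tested.

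Of the 9 genes, 5 rose in L1 KO and none fell: Zmat3, Dglucy, Phlda3, Ptpn14 and Ei24. Over all 13729 tested genes edgeR's quasi-likelihood test called 2.08% higher, 2.48% lower and so 4.56% in all at an adjusted p of 0.05. For the count of 0 lower, edgeR had 0 at an unadjusted p under 0.05, and DESeq2 and limma-voom called 0. The other 4 genes, Trp53inp1, Abhd4, Kank3 and Cdkn2aip, did not pass; at an unadjusted p under 0.05 edgeR had none of them, and DESeq2 and limma-voom called none. The same 5 and no others were the genes whose WT and KO libraries did not overlap, a pattern found in 28.4% of all tested genes, 13.8% with KO higher and 14.7% with KO lower. In the fit with the replicate number as a block, which called 9.51% of all genes higher and 19.5% in either direction, the same 5 were higher and no other was called. In bulk RNA, more cells that express a gene and more RNA per cell cannot be told apart.

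The start regions of the genes that rose are shown because p53 binds DNA through paired copies of a ten-letter palindrome, the p53 half-site, with CATG as its usual centre. RefSeq promoter windows on GRCm38.p6, running from 250 bases before to 50 bases after each start site, were matched for 7 of the 10 genes. Zmat3, Trp53inp1 and Pvt1 had no entry. Both motifs read the same on the 2 strands, and CATG lies within many half-sites, so the counts overlap. The half-site was in 8.36% of 32851 windows, a pair of half-sites 0 to 13 bases apart in 0.0731%, and CATG in 61.1%. In the sequences that follow, capitals mark CATG and the half-site; positions are those of the first base of a match, counted from the start site. Ei24 (chr9:36797285-36797584, minus strand) held 1 half-site, 10 bases upstream of its start. Phlda3 (chr1:135765835-135766134, plus strand) held 1 CATG, 45 bases downstream, near the end of the window. Dglucy (chr12:100778807-100779106, plus strand) held 4 CATG, at 146, 140, 127 and 30 bases upstream. Ptpn14 (chr1:189728018-189728317, plus strand) held neither. The second of the 2 windows of Abhd4 (chr14:54259033-54259332, plus strand), a gene that did not pass the test, is shown beside them because it held a half-site too, 1 base downstream of its start, and a CATG 159 bases upstream. None of these windows held a pair of half-sites. A match describes letters only, and a window without one says nothing on binding elsewhere in the gene.
Ei24: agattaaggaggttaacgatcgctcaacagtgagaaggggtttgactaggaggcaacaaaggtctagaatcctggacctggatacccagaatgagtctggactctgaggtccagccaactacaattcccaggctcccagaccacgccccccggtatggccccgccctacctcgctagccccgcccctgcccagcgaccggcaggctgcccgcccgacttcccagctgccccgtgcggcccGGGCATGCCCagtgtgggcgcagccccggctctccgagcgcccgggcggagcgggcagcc
Phlda3: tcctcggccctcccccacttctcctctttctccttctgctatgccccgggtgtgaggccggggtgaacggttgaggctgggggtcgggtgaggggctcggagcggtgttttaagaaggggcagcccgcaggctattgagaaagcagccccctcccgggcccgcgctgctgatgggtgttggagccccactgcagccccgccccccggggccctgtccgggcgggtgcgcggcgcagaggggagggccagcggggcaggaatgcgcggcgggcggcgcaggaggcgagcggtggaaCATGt
Dglucy: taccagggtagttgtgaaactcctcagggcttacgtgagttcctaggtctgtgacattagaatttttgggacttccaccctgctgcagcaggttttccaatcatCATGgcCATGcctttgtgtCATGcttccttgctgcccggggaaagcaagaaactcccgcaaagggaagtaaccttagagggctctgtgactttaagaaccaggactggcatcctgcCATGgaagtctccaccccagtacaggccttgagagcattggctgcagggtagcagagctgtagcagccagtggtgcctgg
Ptpn14: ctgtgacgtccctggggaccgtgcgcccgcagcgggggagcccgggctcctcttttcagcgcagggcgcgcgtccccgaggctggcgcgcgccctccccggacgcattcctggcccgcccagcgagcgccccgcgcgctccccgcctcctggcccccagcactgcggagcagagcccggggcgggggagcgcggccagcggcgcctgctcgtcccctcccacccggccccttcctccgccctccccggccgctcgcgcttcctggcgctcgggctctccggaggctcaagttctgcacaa
Abhd4: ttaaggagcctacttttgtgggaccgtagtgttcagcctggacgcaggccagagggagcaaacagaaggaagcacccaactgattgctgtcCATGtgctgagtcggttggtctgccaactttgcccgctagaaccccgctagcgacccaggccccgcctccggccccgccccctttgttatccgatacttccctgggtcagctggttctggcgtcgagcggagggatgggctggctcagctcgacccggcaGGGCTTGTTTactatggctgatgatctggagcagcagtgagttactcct
A half-site was thus found beside 1 gene that rose and 1 that did not pass. The guanine and cytosine content was 66.3% in the window of Ei24, 71.7% in that of Phlda3, 78.3% in that of Ptpn14 and 53% in that of Dglucy.

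**Figure D1:**
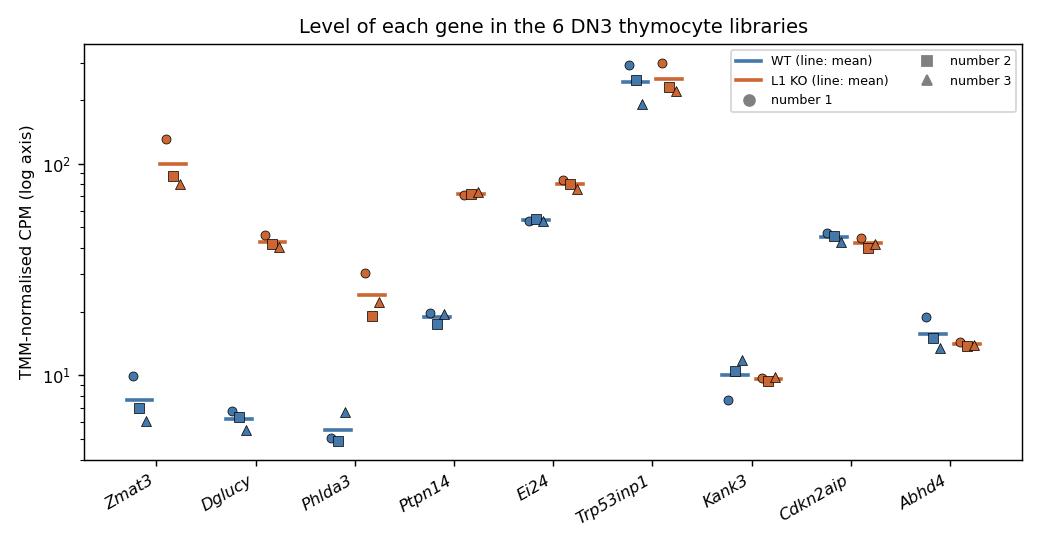
TMM-normalised CPM on a log axis of the 9 genes in the 3 WT (blue) and 3 L1 KO (orange) libraries; lines are group means and marker shapes give the replicate number. For Zmat3, Dglucy, Phlda3, Ptpn14 and Ei24 every KO library lies above every WT library; for the other 4 genes the groups overlap.

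Zmat3, which encodes a zinc finger protein that binds RNA and controls the stability and splicing of messages, changed most. It had 9.91, 7.02 and 6.10 CPM in WT 1 to 3, from 218, 144 and 120 reads. In KO 1 to 3 it had 131, 87.9 and 80.1 CPM, from 3358, 2421 and 1095 reads. The lowest KO library lay far above the highest WT library, and the number 1 library was the highest of both groups. The mean rose from 7.68 ± 1.99 to 99.5 ± 27.2 CPM (SD, n = 3), and edgeR put the log2 fold change at 3.69 ± 0.27 (SE; adjusted p = 0.0025). It was the 7th largest log2 fold change of all tested genes. The log2 ratio of same-numbered libraries was 3.72, 3.65 and 3.71, closer together than the libraries of either group, and the SE with the block was 0.07. Without KO 1 the log2 fold change was 3.45, and without WT 1 it was 3.93. Zmat3 (ENSMUSG00000027663) lies on the minus strand of chromosome 3, chr3:32334792-32366014 in the GENCODE annotation of GRCm38.

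The other zinc finger genes of the same name did not pass the test. Zmat1, Zmat2 and Zmat5 had log2 fold changes of 0.13 ± 0.12, 0.10 ± 0.09 and 0.13 ± 0.10, and Zmat4 had 0 reads. Elavl1, which encodes HuR, another protein that binds messages rich in A and U, stood at 109.9 CPM in WT against 118 CPM in KO and did not pass. Outside all the gene lists, the 3 tested genes whose centred log2 CPM over the 6 libraries lay nearest to that of Zmat3 were Tnfsf4, Cacna1c and 2410017I17Rik, at root mean square distances of 0.47, 0.56 and 0.59. All 3 were far less abundant, so counting error enters these distances: Tnfsf4, the gene of OX40 ligand, had 8 reads in WT and 216 in KO, Cacna1c, a calcium channel gene, 3 and 53, and 2410017I17Rik 16 and 159.

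Dglucy encodes a mitochondrial enzyme that converts D-glutamate, and stands in the table under its older name 9030617O03Rik. It had 6.78, 6.39 and 5.49 CPM in WT and 46.0, 41.7 and 40.5 CPM in KO. Libraries within a group stayed close while the groups lay far apart. The mean went from 6.22 ± 0.657 to 42.7 ± 2.87 CPM (SD, n = 3), a log2 fold change of 2.78 ± 0.11 (adjusted p = 4.17e-06, edgeR). Every pair of same-numbered libraries gave a log2 ratio between 2.71 and 2.88. The gene (ENSMUSG00000021185) covers chr12:100779057-100896981 on the plus strand.

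Phlda3 encodes a small protein made of little more than a lipid-binding pleckstrin homology domain, which competes with the kinase AKT for membrane lipids. It had 5.05, 4.88 and 6.72 CPM in WT and 30.4, 19.0 and 22.2 CPM in KO. KO 1 stood above the other KO libraries, and no KO library came near the WT range. The log2 fold change was 2.11 ± 0.20 (adjusted p = 0.00185, edgeR), from a mean of 5.55 ± 1.02 to 23.9 ± 5.89 CPM (SD, n = 3). Its ratios of same-numbered libraries were the least even of the 5 genes that rose, at 2.59, 1.96 and 1.72 on the log2 scale. Without both number 1 libraries the log2 fold change was 1.81 ± 0.16. Phlda3 (ENSMUSG00000041801) lies at chr1:135766119-135769136 on the plus strand.

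Its paralog Phlda1, whose product has a pleckstrin homology-like domain too, rose by a smaller amount, with 5.002, 3.61 and 3.56 CPM in WT and 8.52, 7.55 and 7.10 CPM in KO. The log2 fold change of Phlda1 was 0.93 ± 0.17 (adjusted p = 0.0203, edgeR), and the WT and KO libraries did not overlap. Phlda2 had too few reads to test. The gene of the kinase itself, Akt1, had 224 ± 5.66 CPM in WT against 227 ± 5.43 CPM in KO (SD, n = 3). AKT activity depends on phosphorylation, which RNA levels do not measure.

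Ptpn14 encodes a tyrosine phosphatase with a membrane-linking FERM domain that holds back the growth coactivator YAP. It had 19.7, 17.5 and 19.4 CPM in WT and 71.3, 71.7 and 73.2 CPM in KO. The KO libraries lay within a narrow band, and unlike Zmat3 the number 1 KO library was not the highest. The mean rose from 18.9 ± 1.19 to 72.1 ± 0.994 CPM (SD, n = 3), a log2 fold change of 1.93 ± 0.07 (adjusted p = 4.17e-06, edgeR). Ptpn14 (ENSMUSG00000026604) covers chr1:189728268-189876695 on the plus strand. GENCODE places an antisense gene, Gm26574, and a pseudogene, Gm30280, within it; as the strand setting of the counting is not given in the sources used here, their reads and those of Ptpn14 cannot be told apart.

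Of the 4 tested relatives with a FERM domain none passed. The closest, Ptpn21, had 2.97 ± 0.815 CPM in WT against 3.61 ± 0.218 CPM in KO (SD, n = 3), a log2 fold change of 0.29 ± 0.22. Ptpn3 had 6.32, 7.02 and 7.33 CPM in WT and 25.0, 7.48 and 8.12 CPM in KO. The high Ptpn3 mean of KO rested on KO 1 alone, and its log2 fold change of 1.002 ± 0.539 did not pass (adjusted p = 0.331, edgeR). Ptpn4 and Ptpn13 had −0.03 ± 0.10 and −0.32 ± 0.29. Of 20 genes of the Hippo pathway, through which YAP is controlled, 12 were tested and edgeR called 0, with 2 at an unadjusted p under 0.05 and 0 by DESeq2 or limma-voom. At an unadjusted p under 0.05 edgeR had 23.5% of all tested genes. With the block edgeR called 1 of the 12, against 19.5% of all tested genes. The median log2 fold change of the 12 was −0.05, against −0.0066 over all tested genes. Yap1 was sparse, at 2.72 ± 0.592 CPM in WT against 1.55 ± 0.203 CPM in KO (SD, n = 3), and was lower with the block, at an adjusted p of 0.0209 against 0.0852 without it. The YAP target genes Ccn1, Ccn2 and Amotl2 had 0 reads in all 6 libraries.

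Ei24 encodes a membrane protein of the endoplasmic reticulum needed for autophagy. Its level was already substantial in WT, at 53.9, 54.8 and 53.5 CPM, and was 83.8, 79.7 and 76.1 CPM in KO. The WT libraries were almost level, and the smallest KO value lay above all of them. The mean rose 1.48-fold, from 54.0 ± 0.664 to 79.9 ± 3.88 CPM (SD, n = 3), with a log2 fold change of 0.56 ± 0.06 (adjusted p = 0.00269, edgeR). This was the smallest of the 5 rises, with 3.08% of tested genes showing a larger log2 fold change. Ei24 (ENSMUSG00000062762) covers chr9:36779159-36797393 on the minus strand, and an antisense gene, Gm26787, overlaps it in GENCODE.

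Trp53inp1, a p53-induced gene whose product links p53 to its kinases and takes part in autophagy, did not pass the test. It had 292, 247 and 191 CPM in WT and 299, 231 and 221 CPM in KO. In both groups the number 1 library was highest and the number 3 library lowest, and the ranges overlapped almost fully. The log2 fold change was 0.04 ± 0.18 with a 95% interval of −0.38 to 0.46 (adjusted p = 0.92, edgeR). Its sign depended on the libraries, with −0.10 to 0.19 when 1 was left out. With the block the spread shrank, the log2 fold change being 0.05 ± 0.06 and the adjusted p 0.657. Its paralog Trp53inp2, at 3.25 ± 1.26 and 2.73 ± 1.03 CPM (SD, n = 3), did not pass either.

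Of 17 tested autophagy genes edgeR called 0, with 3 at an unadjusted p under 0.05 and 0 by DESeq2 or limma-voom, and their median log2 fold change was −0.05. With the block 1 was higher, Atg3, a conjugating enzyme gene (0.28 ± 0.09 without the block; adjusted p with it 0.0123), and 2 were lower, Ulk1, the gene of the initiating kinase (−0.30 ± 0.10; 0.00681), and Map1lc3b, which encodes LC3B (−0.23 ± 0.10; 0.0258). Over all tested genes edgeR had 23.5% at an unadjusted p under 0.05 and called 19.5% with the block. The 3 of 17 autophagy genes in each case were no larger a share. The kinase genes Hipk2 and Prkcd, whose products bind the Trp53inp1 protein, did not pass. Hipk2 was lower with the block, at an adjusted p of 0.0136 in edgeR against 0.296 without it.

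Cdkn2aip, whose product binds both p53 and the ARF tumor suppressor, had 46.8, 45.6 and 42.5 CPM in WT and 44.3, 40.2 and 41.8 CPM in KO. The groups overlapped. The log2 fold change was −0.09 ± 0.07, the 95% interval ran from −0.26 to 0.07, and edgeR gave an adjusted p of 0.461. Cdkn2aipnl, a related gene, had −0.01 ± 0.07. Cdkn2a, the gene of ARF, was too sparse to test, and Xrn2, the gene of an exonuclease that the Cdkn2aip protein binds, had 0.14 ± 0.09 and did not pass. The p53 gene Trp53 had 234, 229 and 244 CPM in WT and 241, 239.9 and 248 CPM in KO, with a log2 fold change of 0.04 ± 0.06 (adjusted p = 0.703, edgeR). Myc, the coding neighbour of Pvt1 at 47612 bases, gave −0.07 ± 0.08 and did not pass.

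Abhd4, an enzyme gene of lipid turnover, had 18.8, 14.97 and 13.4 CPM in WT and 14.4, 13.8 and 14.0 CPM in KO. WT 1 alone was high, and without it the log2 fold change went from −0.17 ± 0.13 to −0.02 ± 0.11. Neither value passed, and the 95% interval of the former was −0.46 to 0.13. Its paralog Abhd5, with 72 reads in WT and 66 in KO and a log2 fold change of −0.23 ± 0.35, did not pass either. Kank3, of a family of ankyrin repeat proteins tied to the cytoskeleton, had 7.68, 10.5 and 11.8 CPM in WT and 9.76, 9.40 and 9.80 CPM in KO. Its KO libraries lay inside the WT range. The log2 fold change was −0.05 ± 0.16, with a 95% interval of −0.41 to 0.31, and its sign turned to 0.10 ± 0.16 without WT 3. Kank3 overlaps the ribosomal protein gene Rps28 on the opposite strand. Rps28 had 442 ± 79.0 CPM in WT against 469 ± 51.7 CPM in KO (SD, n = 3), far above Kank3. Whether reads in the overlap were counted to either gene or to neither is not known, as the strand setting is not given. Of the other Kank genes only Kank2 could be tested; its log2 fold change of −0.58 ± 0.15 did not pass (adjusted p = 0.0628, edgeR), and it was lower with the block (adjusted p = 0.0188).

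**Figure D2:**
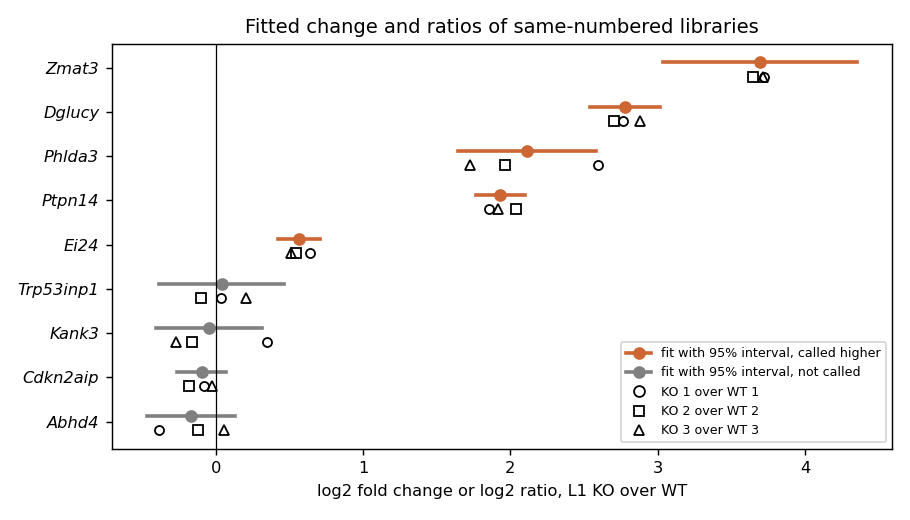
Log2 fold change of L1 KO over WT with its 95% interval from the fit on group (filled points, orange where called higher) and the log2 ratio of each pair of same-numbered libraries (open shapes). The 5 called genes have all 3 ratios above 0, tightly grouped for Zmat3 and spread from 1.72 to 2.59 for Phlda3.

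The intervals show how large a change in the genes that did not pass the data leave room for. For Trp53inp1, Kank3, Cdkn2aip and Abhd4 the upper ends of the 95% intervals were 0.46, 0.31, 0.07 and 0.13, all below the lower ends of Phlda3, Ptpn14, Dglucy and Zmat3, which were 1.64, 1.77, 2.54 and 3.03. The interval of Ei24 began at 0.42, and so overlapped that of Trp53inp1 and no other of these. That overlap is of the fit without the replicate block. With the block the log2 fold changes were 0.56 ± 0.06 for Ei24 and 0.05 ± 0.06 for Trp53inp1 (SE). The block treats same-numbered libraries as pairs, which the labels do not state and the values do not settle for numbers 2 and 3.

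Per length of exon, the genes stood in a different order in the 2 groups. Levels were divided by the merged exon length of each gene in GENCODE, since longer messages give more reads. That length joins all annotated exons of a gene and can exceed the length of the messages present. The order between genes and the size of the gains depend on this choice. In WT, Trp53inp1 was highest at 37.6 ± 7.81 CPM per kilobase (SD, n = 3), followed by Cdkn2aip at 11.5 ± 0.560 and Ei24 at 11.1 ± 0.136, whose libraries overlapped. Abhd4 at 4.80 ± 0.848, Phlda3 at 3.56 ± 0.651 and Kank3 at 3.06 ± 0.645 came next, each overlapping its neighbour. Ptpn14 and Dglucy, at 1.41 ± 0.0889 and 1.35 ± 0.143, overlapped too, and Zmat3 was lowest at 0.672 ± 0.174.

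In KO, Trp53inp1 was again highest at 38.6 ± 6.60 CPM per kilobase (SD, n = 3). Ei24 at 16.4 ± 0.796 and Phlda3 at 15.3 ± 3.78 overlapped. Cdkn2aip came next at 10.7 ± 0.530, its highest library at 11.3 lying below the lowest of Phlda3 at 12.2. Dglucy at 9.29 ± 0.624 and Zmat3 at 8.70 ± 2.38 overlapped, and the highest Zmat3 library, at 11.4, lay above all of Cdkn2aip. Below them stood Ptpn14 at 5.38 ± 0.0741, Abhd4 at 4.28 ± 0.0992 and Kank3 at 2.96 ± 0.0684. The gain in level per kilobase was largest for Phlda3, at 11.8, then 8.03 for Zmat3, 7.94 for Dglucy, 5.31 for Ei24 and 3.97 for Ptpn14, so that the order by gain in level was not the order by fold change.

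**Figure D3:**
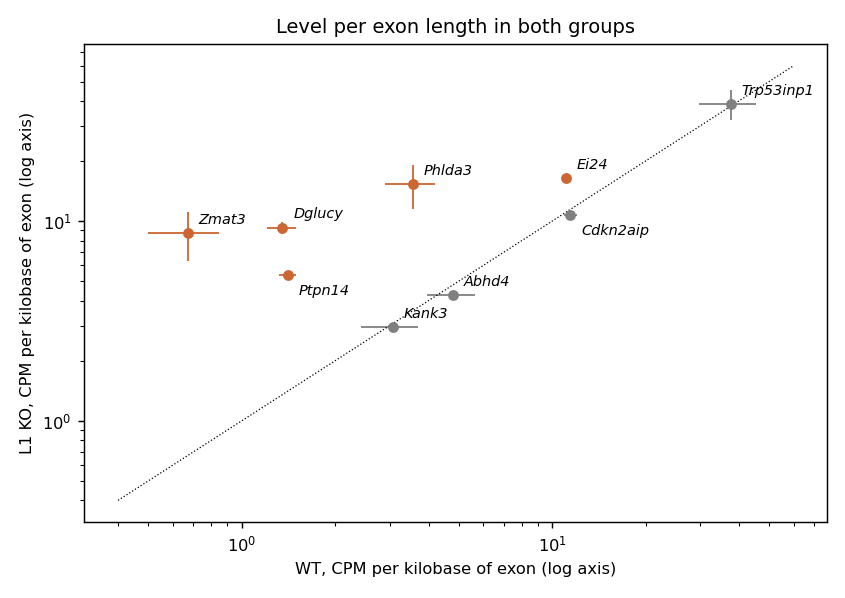
Mean level per kilobase of exon in WT (horizontal) and L1 KO (vertical), both on log axes, with SD bars of 3 libraries; orange marks genes called higher and the dotted line equal levels. Zmat3, Dglucy, Phlda3, Ptpn14 and Ei24 lie above the line, from 0.672 to 8.70 CPM per kilobase for Zmat3.

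The genes beside those that rose were examined next. Of the 10 coding genes nearest to the 5 genes that rose, 1 on each side, 7 had enough reads to test and edgeR called 0. At an unadjusted p under 0.05 edgeR had 4 of the 7, against 23.5% of all tested genes. DESeq2 called 1 and limma-voom 0, and 2 passed with the block, which called 19.5% of all tested genes. Pik3ca, 31657 bases from Zmat3, had 110 ± 8.05 CPM in WT against 107 ± 3.36 CPM in KO (SD, n = 3). Smyd2, 3797 bases from Ptpn14, had 90.7 ± 11.01 and 96.7 ± 6.68 CPM, and Csrp1, 13887 bases from Phlda3, 170 ± 8.68 and 163 ± 3.32 CPM. The 7 neighbours gave log2 fold changes of −0.16 to 0.34, the highest for Cenpf, a gene of cell division beside Ptpn14 (adjusted p = 0.0804, edgeR). The others at an unadjusted p under 0.05 were Stt3a beside Ei24 (0.21 ± 0.07, SE), and Rps6ka5 (0.18 ± 0.07) and Ccdc88c (−0.16 ± 0.06) beside Dglucy.

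The other p53 targets give the setting. In 4 lists of 71 further targets, 65 were tested, of which 19 rose and 1 fell, with a median log2 fold change of 0.12. With the block 24 were higher and 4 lower. Values in brackets are log2 fold changes with their SE unless reads are given. Among 14 tested death genes 9 rose, including Eda2r, a receptor gene (from 4 reads in WT to 771 in KO), Bax, which forms pores in mitochondria (1.27 ± 0.07), Pmaip1, which encodes Noxa (3.54 ± 0.21), Bbc3, which encodes Puma (1.99 ± 0.17), Fas, a death receptor gene (1.41 ± 0.19), and Aen, a nuclease gene (0.90 ± 0.13). Among 16 genes of feedback and the cell cycle 4 rose, Psrc1 (2.25 ± 0.09), Ccng1 (1.20 ± 0.08), Gtse1 (1.34 ± 0.10) and Plk2, which had 3 reads in WT and 100 in KO. Most of that list, 12 genes, did not pass, among them Cdkn1a (0.23 ± 0.18), Mdm2 (0.08 ± 0.06) and Btg2 (−0.48 ± 0.13). The median log2 fold change of the list was 0.15. With the block 5 of the 16 were higher and 1, Btg2, was lower, at an adjusted p of 0.0183 in edgeR. Among 21 genes of repair and metabolism 3 rose, Sesn2 (1.04 ± 0.15), Polk (0.49 ± 0.07) and Tap1 (0.34 ± 0.07), and Sesn1 fell (−0.34 ± 0.07).

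The list of 14 further tested targets of signalling was nearest in kind to the genes described. It had 3 that rose and 11 that did not pass, with a median log2 fold change of 0.20. Over all tested genes 2.08% were higher, and 9.51% with the block. With the block 6 were higher, the same 3 and Arap2, Tnfaip8 and Ptp4a1 (adjusted p = 0.0197, 0.0349 and 0.00837, edgeR). Dyrk3, a kinase gene, had 3.91, 4.10 and 3.71 CPM in WT and 9.80, 8.06 and 7.90 CPM in KO (log2 fold change 1.14 ± 0.14). Slc19a2, a thiamine transporter gene, had 10.2, 10.7 and 10.8 CPM in WT and 23.3, 16.1 and 16.5 CPM in KO (0.83 ± 0.15). Epha2, a receptor tyrosine kinase gene, had 15.1, 9.997 and 6.87 CPM in WT and 42.3, 27.4 and 30.2 CPM in KO (1.64 ± 0.31). Like Zmat3 and Phlda3, all 3 genes were highest in KO 1 among the KO libraries.

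**Figure D4:**
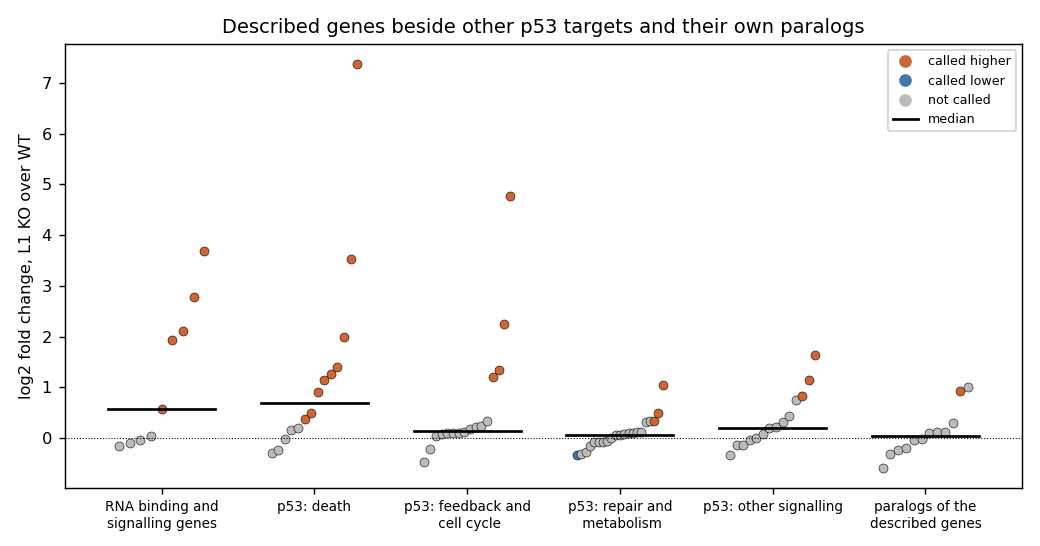
Log2 fold change of L1 KO over WT for the 9 genes described, for 4 lists of other p53 targets and for paralogs of the described genes; each point is a gene, orange where called higher, blue where called lower, and bars are medians. Among the 12 tested paralogs 1, Phlda1, was called, against 4.56% of all tested genes.

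The number 1 libraries bear on several of these genes. Of the 9 genes, 6 were highest in WT 1 among the WT libraries and 7 in KO 1 among the KO libraries, against 38.1% and 41.6% of all tested genes. Zmat3, Trp53inp1, Dglucy, Abhd4 and Cdkn2aip were highest in number 1 in both groups. Without both number 1 libraries the log2 fold change was 3.68 ± 0.10 for Zmat3, 0.53 ± 0.06 for Ei24 and 0.04 ± 0.13 for Trp53inp1, on the same side of the threshold in edgeR as with them. What sets the number 1 libraries apart was not tested.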

How the data were processed

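The values are whole-number read counts by gene symbol, in 1 table the authors deposited, with no normalisation. TopHat2, HTSeq and the GRCm38 build were used, per the submitters' processing notes; for versions, annotation and strand setting, nothing is given in the labels. Rows that name no gene were left out of library sizes and tests; 50.4% to 51.9% of a library's reads fell outside annotated features. Columns named Ctrl were matched to WT titles by number, with 0 unmatched. In R 4.3.3, genes were kept by filterByExpr (minimum count 10, minimum total 15), scaled by TMM and compared with edgeR 4.0.16 (glmQLFit, robust, current quasi-likelihood version; two-sided F test; Benjamini-Hochberg over all 13729 genes). SE and 95% intervals are those implied by the F statistic. The fit was tested on simulated data. The labels do not say whether each library is its own mouse, and p-values thus reflect the spread of these libraries alone, possibly technical. Same-numbered libraries deviated together, with correlations across genes of 0.58, 0.17 and 0.34, all above 0.1. Of the unlike-numbered pairs, WT 2 with KO 3 (0.29) and WT 3 with KO 2 (0.22) were above 0.1 too, and the rest were negative. The values thus do not settle whether numbers 2 and 3 are pairs, and the labels state no shared litter or day. The replicate block is therefore an alternative fit. Genes and lists were chosen with earlier results of these data known. Every one of the 9 genes is named, with Trp53, Rpl22l1, tested paralogs, up to 6 called genes of each list by smallest p, and the 3 genes nearest to Zmat3; others named in the text were chosen after their values were seen. Alternatives used DESeq2 1.42.0, limma 3.58.1, other scalings and filters, the replicate block and fewer libraries. Results for a few further genes are not reported here.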

Additional observations from a re-analysis of the deposited data

How the results depend on the processing

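Under all 16 alternatives run, 5 of the 9 genes were higher and 0 lower, and each of the 9 kept its side of the threshold; the largest adjusted p of a called gene was 0.0278, for Zmat3 without WT 2. The calls of the other p53 targets moved more: leaving out 1 library gave 10 to 23 higher (10 without WT 2) and 0 to 4 lower. Those lower were 2 with DESeq2, 4 with the replicate block and 4 without both number 1 libraries, and 0 without any single library except KO 1, where they were 4. Over all genes, 286 were higher and 340 lower; leaving out 1 library gave 54 to 1049 higher and 48 to 994 lower, the fewest without WT 2 and the most without KO 1. DESeq2 gave 612 and 610, the replicate block 1306 and 1378, and leaving out both number 1 libraries 1391 and 1407. The earlier edgeR defaults, added after seeing the data, gave 294 and 334. The cause was not tested. The block changed no call among the 9 genes. How far depth limited the sparse genes was not tested.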
